A study of Caenorhabditis elegans with 5 samples.

Results

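The genes described are 10 lipase genes of Caenorhabditis elegans, lipl-1 to lipl-8, atgl-1 and hosl-1, chosen by symbol from 45251 genes in the deposited count tables. All 10 had a row in every table. RNA was measured by 3' tag sequencing in whole wild-type worms of the laboratory strain N2, grown on agar seeded with Escherichia coli OP50 at 20 °C and labelled as L4 (the final larval stage) to adult. The 3 BPTMC libraries came from worms kept for 24 h on plates holding bisphenol TMC (BPTMC), a bisphenol, and the 2 DMSO libraries from worms kept for 24 h on plates holding dimethyl sulfoxide (DMSO), treated as the solvent control. Both plate types are labelled 1 mM. Nothing in the labels says that replicates were separate cultures, so the p-values rest on a spread between libraries that may be technical in part or in whole.

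Lipases split stored triglycerides and other lipid esters into fatty acids. In C. elegans, which has no adipose tissue, fat is stored mainly in the intestine and the hypodermis. The lipl genes are named for their similarity to mammalian lysosomal acid lipase, which works inside the lysosome. atgl-1 encodes the worm adipose triglyceride lipase, which works on cytosolic lipid droplets, and hosl-1 encodes the homologue of hormone-sensitive lipase. During fasting the transcription factor HLH-30 activates lipl genes that MXL-3 represses in fed worms.

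Total counts ranged from 16531114 to 24362712 per library, and 14238 genes had enough reads to be tested. Values are given as reads, or as CPM, each gene's share of its library's reads expressed per 1e6 reads, scaled between libraries by the trimmed mean of M-values (TMM). Markers of intestine, body wall muscle, hypodermis, neurons, germline with oocytes, and sperm were all present, with 0 of 58 marker genes lacking reads in every library. Over all tested genes the edgeR quasi-likelihood test at an adjusted p under 0.05 called 15 higher and 0 lower in BPTMC, and the median log2 fold change was -0.09. Sperm markers summed to 39.2 and 19.9 CPM in the DMSO libraries and to 138, 21.6 and 89.3 CPM in BPTMC replicates 1, 2 and 3. Germline and oocyte markers summed to 1447 and 3713 CPM in DMSO and to 435, 2223 and 2741 CPM in BPTMC. BPTMC replicate 1 therefore stood apart as high in sperm and low in oocyte transcripts, and the lipase values are also given without it.

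Levels of lipl-5, lipl-1, lipl-2 and lipl-3 were higher on average in BPTMC, by fitted factors of 6.24, 28.2, 18.9 and 9.26. None of these differences passed the edgeR test over all genes. For lipl-5 every BPTMC library exceeded both DMSO libraries, whereas for lipl-1, lipl-2 and lipl-3 the excess lay in BPTMC replicates 1 and 3, with replicate 2 inside the DMSO range. The cytosolic lipases atgl-1 and hosl-1, and the lysosomal-type genes lipl-4 and lipl-7, had overlapping groups and small fitted differences. lipl-6 and lipl-8 were almost without reads.

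**Figure D1:**
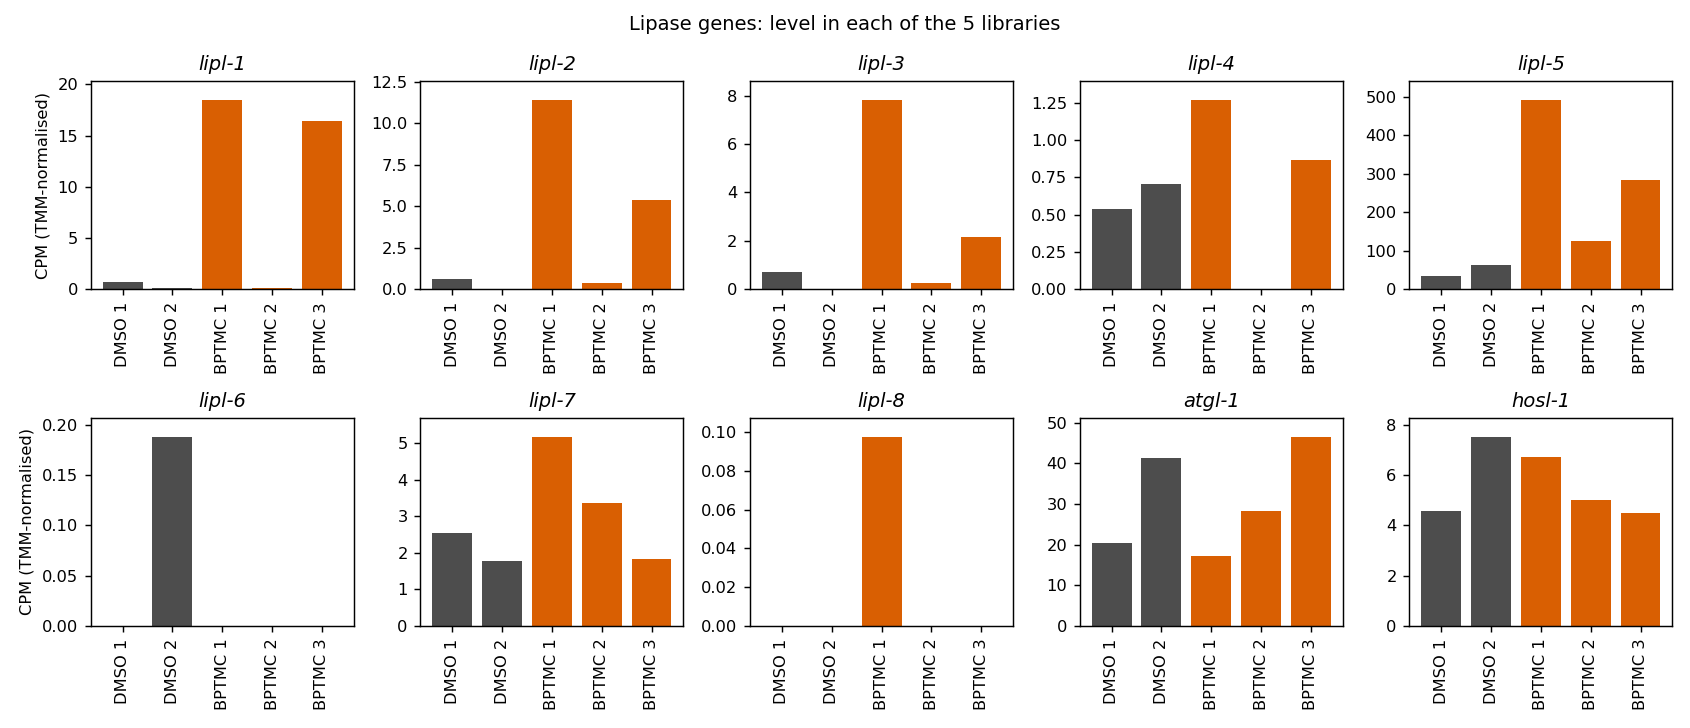
Level of each lipase gene in CPM (TMM-normalised, linear axis from 0, a separate scale per gene) in the 2 DMSO libraries (grey) and 3 BPTMC libraries (orange); each bar is 1 library. For lipl-5 all 3 BPTMC bars exceed both DMSO bars, and for lipl-1, lipl-2 and lipl-3 the bars of BPTMC replicates 1 and 3 stand above the rest.

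lipl-5 is a lysosomal acid lipase gene known to respond to nutrient supply. It lies on chromosome V of WBcel235, from 385746 to 387740 on the plus strand (WBGene00022642), with 4 annotated transcripts and no overlapping gene. DMSO replicates 1 and 2 held 768 and 1314 of its reads, against 10051, 2463 and 5564 for BPTMC replicates 1, 2 and 3. After scaling these were 34.4 and 61.8 CPM without BPTMC, against 491, 126 and 283 CPM with it. The groups did not overlap, and the lowest BPTMC library was still above the higher DMSO library. Such separation was seen in 13.4% of all tested genes. The means were 48.1 ± 19.4 CPM (SD, n = 2) and 300.0 ± 183 CPM (SD, n = 3). The log2 fold change was 2.64 ± 0.63 (SE), with a 95% interval of 1.20 to 4.08.

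The edgeR adjusted p of lipl-5 was 0.302 and its unadjusted p was 0.00270, which placed it at rank 126 by p among the tested genes. DESeq2 called it with an adjusted p = 0.00298, while over the 14 alternatives other than a replicate block the adjusted p ran from that value up to 0.784. Without BPTMC replicate 1 the log2 fold change was 2.20 ± 0.48 (edgeR adjusted p = 0.179), so a positive difference of similar size was present in the other libraries.

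lipl-1, one of the lipl genes that HLH-30 activates and MXL-3 represses, was nearly silent in 3 libraries and expressed in 2. The gene spans 12919986 to 12921692 on the plus strand of chromosome V (WBGene00010062) in 5 exons. It had 16 and 2 reads in the DMSO libraries, against 378, 3 and 323 in BPTMC replicates 1, 2 and 3. These are 0.717 and 0.0940 CPM against 18.5, 0.153 and 16.4 CPM. BPTMC replicate 2 thus lay between the DMSO libraries, at the level that 3 reads give, while the other BPTMC libraries were far above them. The group means were 0.405 ± 0.440 CPM (SD, n = 2) and 11.7 ± 10.04 CPM (SD, n = 3). Its log2 fold change was 4.82 ± 1.61 (SE; 95% interval 1.13 to 8.50), with an edgeR adjusted p = 0.558. DESeq2 called lipl-1 with an adjusted p = 0.00857, and over the same 14 alternatives the adjusted p reached 1. The log2 fold change was 4.37 ± 1.54 without BPTMC replicate 1 and 5.46 ± 0.90 without replicate 2 (edgeR adjusted p = 0.733 and 0.132). It was 6.85 ± 1.87 without DMSO replicate 1 and 4.06 ± 1.64 without DMSO replicate 2, so the fitted factor depends strongly on which DMSO library is kept.

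lipl-2, another lysosomal acid lipase-like gene, followed the same order of libraries. It lies on chromosome V from 9791567 to 9793241 on the plus strand (WBGene00009773). It had 13 and 0 reads in DMSO and 233, 7 and 105 reads in BPTMC, or 0.582 and 0 CPM against 11.4, 0.357 and 5.34 CPM. BPTMC replicate 2 was again below DMSO replicate 1. The fitted log2 difference was 4.24 ± 1.47 (SE; 95% interval 0.88 to 7.61), with an edgeR adjusted p = 0.563. Without BPTMC replicate 1 it was 3.29 ± 1.35, without BPTMC replicate 2 it was 4.90 ± 1.24 and without DMSO replicate 2 it was 3.34 ± 1.48.

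lipl-3 is, like lipl-1, a target of HLH-30 and MXL-3. It lies on chromosome V from 521595 to 524218 on the minus strand (WBGene00020016) in 7 exons. Its 23 exon bases in common with srw-107 on the same strand carried little signal, since srw-107 had 1 read in BPTMC replicate 1 and 0 elsewhere. lipl-3 had 16 and 0 reads in DMSO and 160, 5 and 42 reads in BPTMC, or 0.717 and 0 CPM against 7.82, 0.255 and 2.14 CPM. The groups overlapped through BPTMC replicate 2, and replicate 1 held most of the reads. For lipl-3 the log2 fold change was 3.21 ± 1.44 (SE; 95% interval -0.08 to 6.51), with an edgeR adjusted p = 0.687. Without BPTMC replicate 1 it was 1.74 ± 1.28, without BPTMC replicate 2 it was 3.88 ± 1.34 and without DMSO replicate 2 it was 2.32 ± 1.43.

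The 3 genes lipl-1, lipl-2 and lipl-3 ordered the libraries alike: BPTMC replicate 1 was highest, followed by BPTMC replicate 3, DMSO replicate 1, BPTMC replicate 2 and DMSO replicate 2. The last places rest on few reads. BPTMC replicate 2 had 3, 7 and 5 reads of these genes, and DMSO replicate 2 had 2, 0 and 0. In log2 CPM centred on each gene's mean over the 5 libraries, the profiles of lipl-2 and lipl-3 differed by a root mean square of 0.528, the smallest of all pairs of tested lipase genes. lipl-1 and lipl-2 differed by 0.823 and lipl-1 and lipl-3 by 1.17, while lipl-5 differed from these genes by 1.48 to 1.97. This measure is centred but not scaled, so pairs of genes that vary little over the libraries also differ by little, whatever their order. lipl-7 and hosl-1 differed by 0.588, atgl-1 and hosl-1 by 0.647 and lipl-7 and atgl-1 by 1.07. Yet lipl-7 and atgl-1 stood at 0.91 and -0.74 in BPTMC replicate 1, and at -0.55 and 0.70 in BPTMC replicate 3. A small value alone therefore does not show a shared profile. lipl-1, lipl-2 and lipl-3 are on the same chromosome but are not neighbours. The adjacent protein-coding genes nid-1 and dhrs-4 on either side of lipl-1 had 155 to 194 and 317 to 571 reads per library, without the near-absence of reads seen for lipl-1.

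The summed sperm markers placed the 5 libraries in the same order as lipl-1, lipl-2 and lipl-3, whose last places rest on few reads. The sperm marker list had 11 of its 12 tested members with a positive fold change and a median log2 fold change of 1.88, with groups overlapping for every tested member. In 3' tag data from whole worms, more cells of a type and more RNA per cell cannot be told apart. The part of the sperm and germline differences in the lipase result was not tested. The 31 major sperm protein genes held only 0.0045 to 0.0389% of the reads of a library. Leaving them out before scaling called 0 lipase genes, as before. With so few reads removed, that fit could hardly differ and does not bear on the sperm difference.

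Intestine markers summed to 2540 and 1458 CPM in DMSO and to 4120, 1683 and 2254 CPM in BPTMC, so the sums overlapped. The mean over these markers, in log2 CPM centred over the 5 libraries, did not overlap between groups. That mean stood at -0.13 and -0.48 in DMSO and at 0.41, 0.01 and 0.19 in BPTMC. Of the 10 intestine markers 9 had a positive fold change, against 45.5% of all tested genes, with a median log2 fold change of 0.71. Separated upwards were 4, against 13.4% of all tested genes. By edgeR 2 were higher at an unadjusted p under 0.05, against 7% of all tested genes. Markers of muscle, hypodermis and neurons also had positive medians, of 0.52, 0.87 and 0.84. The summed hypodermis markers were nevertheless lower in BPTMC replicates 1 and 3, at 456 and 376 CPM, than in DMSO, at 653 and 559 CPM. BPTMC replicate 2 was above both DMSO libraries, at 767.5 CPM. All 10 germline and oocyte markers were negative, with a median of -0.50. The medians of the somatic lists thus had the sign of the larger lipl differences and that of the germline list the opposite sign, while edgeR called 0 genes of any of these lists. The part of this shift in the lipase values was not tested. lipl-5 was also set against the summed intestine markers on the log2 scale, centred over the 5 libraries. It then stood at -2.09 and -0.45 in DMSO and at 1.05, 0.37 and 1.12 in BPTMC, without overlap. The sum is weighted to the most abundant markers, and lipl-5 was not set against the mean over markers. The part of intestine makeup in the lipl-5 difference was not tested. On the same scale lipl-1 stood at -1.19 and -2.48 in DMSO and at 2.63, -2.30 and 3.33 in BPTMC, with the same overlap as before.

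**Figure D2:**
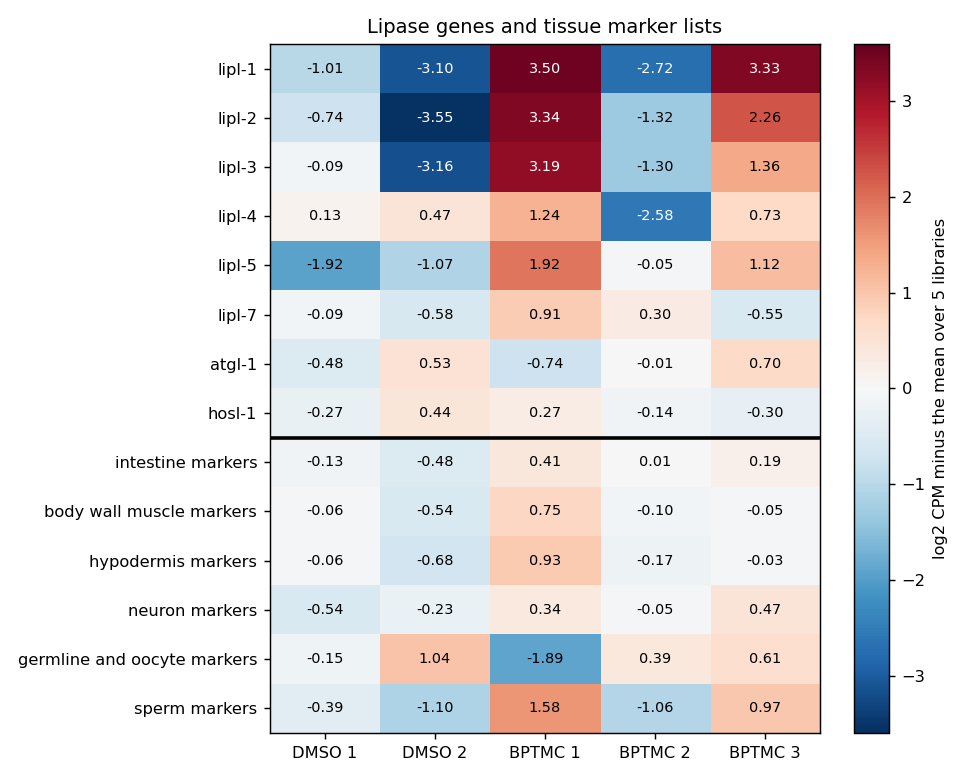
log2 CPM (prior count 2) minus the mean over the 5 libraries, for the 8 tested lipase genes (above the line) and as the mean over the members of 6 marker lists (below it); red is above and blue below the mean. lipl-1 runs from -3.10 in DMSO replicate 2 to 3.50 in BPTMC replicate 1. The sperm and the neuron marker rows both have the same sign as lipl-1 in every library.

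lipl-4 encodes a lysosomal acid lipase whose intestinal overexpression is known to lengthen worm lifespan. It lies on chromosome V from 6550171 to 6552186 on the plus strand (WBGene00019376), and shares 120 exon bases with the antisense non-coding gene K04A8.15, which had 0 reads. It also shares 82 exon bases with an antisense tRNA gene (WBGene00023095), whose reads are not given here. lipl-4 had 12 and 15 reads in DMSO and 26, 0 and 17 reads in BPTMC. These are 0.537 and 0.705 CPM against 1.27, 0 and 0.864 CPM. BPTMC replicate 2 was the lowest library and replicate 1 the highest. A count of 0 in BPTMC replicate 2 allows up to 3 reads, or 0.153 CPM, for counting error only. For lipl-4 the log2 fold change was 0.20 ± 1.06 (SE; 95% interval -2.24 to 2.65; edgeR adjusted p = 0.943), an interval too wide to show likeness or difference.

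lipl-7, a further acid lipase-like gene, is the only lipl gene of the 8 on chromosome IV, from 10239278 to 10241823 on the minus strand (WBGene00008510). It had 57 and 38 reads in DMSO and 106, 66 and 36 reads in BPTMC, or 2.55 and 1.79 CPM against 5.18, 3.37 and 1.83 CPM. BPTMC replicate 3 lay within the DMSO range. Its log2 fold change was 0.67 ± 0.58 (SE; 95% interval -0.66 to 2.01; edgeR adjusted p = 0.834).

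lipl-6 and lipl-8 did not pass the filter on low counts and were not tested. lipl-6, on chromosome V from 6931475 to 6934312 (WBGene00021963), had 4 reads in DMSO replicate 2 and 0 in each other library. lipl-8, on chromosome V from 14745684 to 14748708 (WBGene00013050), had 2 reads in BPTMC replicate 1 and 0 in each other library. A count of 0 allows up to 0.134 to 0.153 CPM, depending on the library, so a difference in either gene was not detectable at this depth.

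For both cytosolic lipases the groups overlapped. atgl-1 lies on chromosome III from 6415772 to 6419459 on the minus strand (WBGene00015484). It had 456 and 881 reads in DMSO and 350, 555 and 916 reads in BPTMC, or 20.4 and 41.4 CPM against 17.1, 28.3 and 46.6 CPM. BPTMC libraries formed both the lowest and the highest value, and the spread within each group exceeded the difference between the means of 30.9 ± 14.8 CPM (SD, n = 2) and 30.7 ± 14.9 CPM (SD, n = 3). The log2 fold change was -0.01 ± 0.52 (SE), and its 95% interval of -1.20 to 1.18 leaves room for changes of that size in either direction. Unlike lipl-1, lipl-2 and lipl-3, atgl-1 was lowest in BPTMC replicate 1.

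hosl-1 lies on the X chromosome from 4637121 to 4643695 on the plus strand (WBGene00016704) in 14 exons. It had 102 and 160 reads in DMSO and 137, 98 and 88 reads in BPTMC, or 4.57 and 7.52 CPM against 6.70, 5.003 and 4.47 CPM. The groups overlapped, with the highest value in DMSO replicate 2 and the lowest in BPTMC replicate 3. For hosl-1 the log2 fold change was -0.16 ± 0.46 (SE; 95% interval -1.21 to 0.89; edgeR adjusted p = 0.893). Without BPTMC replicate 1 the log2 fold changes of lipl-4, lipl-7, atgl-1 and hosl-1 were -0.42, 0.32, 0.39 and -0.25. The sign of the atgl-1, hosl-1 and lipl-4 values changed when some libraries were left out, so no direction is given for them.

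Counted together, 0 of the 8 tested lipase genes were called higher or lower by edgeR over all genes, where 0.105% of tested genes were called higher and 0% lower. With no adjustment of p, edgeR placed 3 members higher under 0.05 (lipl-1, lipl-2 and lipl-5) and 0 lower, against 7% and 0.4% of all tested genes. DESeq2 called 2 members higher (lipl-1 and lipl-5) and 0 lower, against 1.67% and 0.0211%, and limma-voom called 0, against 0.00702% higher. By limma-voom 1 member (lipl-5) was higher at an unadjusted p under 0.05, against 3.95% of tested genes. The filter works on CPM before TMM scaling, and on that scale lipl-1, lipl-2, lipl-3 and lipl-4 each reached its level of 0.501 CPM in 1 DMSO library and in 2 BPTMC libraries. For lipl-4 the other DMSO library lay just under that level, and both lie above it after scaling. A gene that passes a filter in this way tends to differ, so these counts describe the genes and lend no support to a difference. Every BPTMC library lay above every DMSO library for 1 of the 8 members, lipl-5, and below for 0, against 13.4% and 9.96% of all tested genes, so the share of separated members was near that of all genes.

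**Figure D3:**
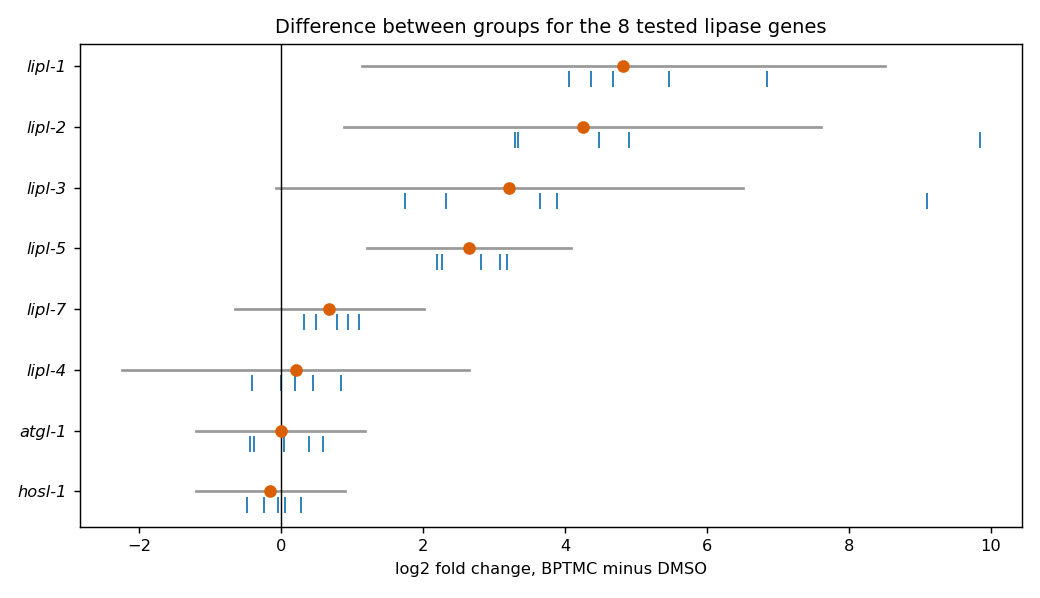
log2 fold change (BPTMC minus DMSO, edgeR) of the 8 tested lipase genes: orange points are the fit with all 5 libraries, grey lines the 95% interval, and blue ticks the fits that leave out 1 library each. lipl-5 keeps to 2.20 to 3.18 over these fits, and the far ticks of lipl-2 at 9.84 and lipl-3 at 9.10 leave out DMSO replicate 1, after which the remaining DMSO library has 0 reads.

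Genes that regulate or act downstream of lysosomal lipolysis included 10 tested members, of which edgeR called 0, while 3 were above and 0 below DMSO with an unadjusted p under 0.05, against 7% and 0.4% of all tested genes. Their median log2 fold change was 0.45, with 7 positive, where 45.5% of all tested genes were positive. lbp-8, whose protein carries a lipid signal from the lysosome to the nucleus downstream of lipl-4, stood at 2.82 and 1.504 CPM in DMSO and at 17.2, 32.1 and 9.51 CPM in BPTMC. Its groups did not overlap and BPTMC replicate 2 was the highest library, unlike for lipl-1. The log2 fold change of lbp-8 was 3.17 ± 0.66 (SE; edgeR adjusted p = 0.215). nhr-80, a nuclear receptor in that signalling route, had a log2 fold change of 1.29 ± 0.53, and the forkhead factor gene pha-4 of 1.57 ± 0.61, with edgeR adjusted p = 0.643 and 0.622.

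hlh-30 and mxl-3 were named for their known role and not for their p. hlh-30 stood at 14.5 and 20.6 CPM in DMSO and at 30.8, 20.8 and 36.7 CPM in BPTMC, with a log2 fold change of 0.75 ± 0.42 (edgeR adjusted p = 0.779). Its groups did not overlap, although BPTMC replicate 2 lay only just above the higher DMSO library, and 4 of the 10 genes of this list were separated upwards against 13.4% of all tested genes. Within BPTMC it was lowest in replicate 2, the library in which lipl-1, lipl-2 and lipl-3 were also low. mxl-3 stood at 58.8 and 49.5 CPM in DMSO and at 76.95, 48.7 and 45.8 CPM in BPTMC, with overlapping groups and a log2 fold change of 0.08 ± 0.39.

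Partners of ATGL-1 and other lipid droplet genes gave a median log2 fold change of -0.06 over 11 tested members, close to that of all genes. edgeR called 0, and none had an unadjusted p under 0.05. Separated upwards were 2 and downwards 0, against 13.4% and 9.96% of all tested genes. The smallest p belonged to kin-1, the catalytic subunit of protein kinase A, at 0.94 ± 0.48, then to the droplet protein gene dhs-3 at -0.60 ± 0.42 and to abhd-5.2 at 0.58 ± 0.58 on the log2 scale.

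Among other lipase genes (the lips and fil families), 7 of 16 with a row could be tested, and edgeR called 0 and 1 had an unadjusted p under 0.05, higher in BPTMC as in 7% of all tested genes. The median was 0.71 with 6 positive. That 1 gene was fil-1, a fasting-induced lipase. fil-1 stood at 0.448 and 0.376 CPM in DMSO and at 30.8, 6.18 and 34.8 CPM in BPTMC, so the groups did not overlap, and BPTMC replicate 2 was again the lowest of its group. The log2 fold change of fil-1 was 5.84 ± 0.92 (SE), with an edgeR adjusted p = 0.0901. lips-5 and lips-3 followed with 1.34 ± 0.59 and 0.71 ± 0.66. In this list 2 of the 7 tested genes were separated upwards and 0 downwards, against 13.4% and 9.96% of all tested genes.

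Lysosomal lipid-handling genes included 16 tested members with a median of 0.91 and 11 positive. Of these 8 were separated upwards and 0 downwards, against 13.4% and 9.96% of all tested genes. edgeR called 0, and 6 were higher and 0 lower with an unadjusted p under 0.05, a cutoff at which 7% of all tested genes were higher and 0.4% lower. gba-2, a glucocerebrosidase homologue, stood at 0.806 and 0.470 CPM in DMSO and at 8.90, 16.1 and 16.6 CPM in BPTMC, with a log2 fold change of 4.43 ± 0.60 and an edgeR adjusted p = 0.0548. Unlike lipl-1, gba-2 was high in all 3 BPTMC libraries. spp-8, a saposin-like gene, stood at 13.9 and 7.66 CPM in DMSO against 85.1, 24.7 and 61.2 CPM in BPTMC, and gba-4 had a log2 fold change of 2.09 ± 0.53.

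Of 11 genes that respond to fasting, edgeR called 0, and 4 were higher and 0 lower with an unadjusted p under 0.05, beside the same 7% and 0.4% of all genes. The median log2 fold change was 0.89, with 8 members positive and 3 negative. Every BPTMC library lay above DMSO for 4 of the 11 and below for 1, against 13.4% and 9.96% of all tested genes. The 1 below was ech-6, a negative member named after its values were seen. It stood at 211.4 and 214.1 CPM in DMSO and at 139.6, 203.6 and 97.06 CPM in BPTMC. cpt-4, a carnitine palmitoyltransferase gene of fatty acid import into mitochondria, had a log2 fold change of 2.28 ± 0.62. fmo-2, a flavin-containing monooxygenase gene, had 2.89 ± 0.85 and ech-9, an enoyl-CoA hydratase family gene, 2.89 ± 0.88, with edgeR adjusted p = 0.390, 0.444 and 0.481 for cpt-4, fmo-2 and ech-9. acs-2, an acyl-CoA synthetase gene widely used as a fasting marker and named here for that use, stood at 32.6 and 28.5 CPM in DMSO and at 33.1, 30.5 and 18.1 CPM in BPTMC.

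The desaturase genes fat-7 and fat-5, whose transcripts are known to fall during fasting, were singled out after their values were seen. fat-7 stood at 60.8 and 35.7 CPM in DMSO and at 9.97, 118.8 and 3.15 CPM in BPTMC replicates 1, 2 and 3. fat-5 stood at 25.7 and 23.2 CPM in DMSO and at 8.02, 75.6 and 9.36 CPM in BPTMC. For both genes BPTMC replicates 1 and 3 were below the DMSO libraries and replicate 2 was above them, the opposite arrangement of lipl-1, lipl-2 and lipl-3 within BPTMC. The group log2 fold changes, -0.13 ± 1.17 for fat-7 and 0.34 ± 0.90 for fat-5, average over libraries that lay on both sides of the controls. fat-6, the related desaturase gene in the same list, did not share this arrangement: it stood at 143.7 and 115.4 CPM in DMSO and at 364.3, 258.9 and 99.15 CPM in BPTMC, so that replicates 1 and 2 were above the controls and replicate 3 below them.

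**Figure D4:**
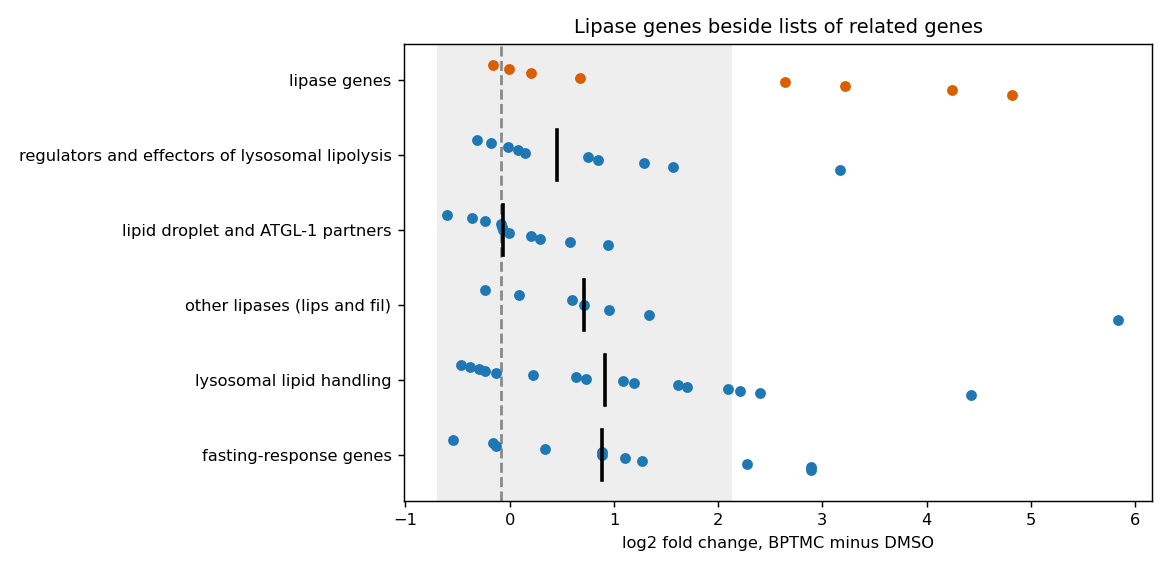
log2 fold change (BPTMC minus DMSO) of the 8 tested lipase genes (orange) and of the tested members of 5 lists of related genes (blue); black bars are the medians of the 5 lists, the dashed line is the median of all 14238 tested genes at -0.09 and the grey band runs from their 5th percentile at -0.69 to their 95th at 2.12. 4 lipase genes and 8 genes of the other lists, fil-1 and gba-2 among them, lie above the band, and the lipid droplet list centres on the median of all genes.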

How the data were processed

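Raw read counts per gene were deposited, 1 column per sample, from Lexogen QuantSeq 3' libraries made with 500 ng of total RNA, per the labels' protocols. The submitters' processing notes name Bowtie2, bedtools and the build WBcel235. For versions, annotation and strand setting the sources used here give nothing. Coordinates are those of Ensembl release 115 on WBcel235.

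All 5 libraries entered 1 fit of BPTMC (n = 3) against DMSO (n = 2) in R 4.3.3: edgeR 4.0.16, quasi-likelihood, scaled by TMM and filtered by filterByExpr (minimum count 10), and Benjamini-Hochberg adjustment over the 14238 genes left. Calls needed an adjusted p under 0.05. The SE is approximate, from the log2 fold change and the root of F, and 95% intervals use the test's degrees of freedom. DESeq2 1.42.0, limma-voom (limma 3.58.1) and further settings were alternatives. The fits were also run on counts simulated from fitted means and dispersions, where edgeR was checked for recovering planted fold changes. The simulated libraries held no shared differences in makeup, so that run does not test the calls made here. The lipase genes and lists were chosen with earlier results of these data known. All lipase genes are named, with the 3 smallest p of each related list; exceptions are marked. drop-1, lips-4, lips-14 and lips-16 matched no row. No sequence was used here.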

Additional observations from a re-analysis of the deposited data

How the results depend on the processing

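No setting but DESeq2 and the replicate block called a lipase gene: DESeq2 called 2 and the block 4 (lipl-1, lipl-2, lipl-3 and lipl-5), and none was called lower. With limma-voom 1 lipase gene was higher at an unadjusted p under 0.05 instead of 3. The replicate block uses numbers that nothing in the labels ties to a shared culture or day. The deviations of same-numbered libraries from their group means correlated at 0.666 for replicate 1 and 0.325 for replicate 2. The deviations of the 2 DMSO libraries mirror each other, so these correlations are not separate evidence. Whether the numbers mark a pairing was not tested. Over all genes the block called 1147 higher and 599 lower. BPTMC replicate 3 has no DMSO library of its number, so the fold changes of that fit rest on replicates 1 and 2 alone. The all-gene count of 15 higher was 2 with total-count scaling, 65 (and 2 lower) with no filter, 3 with at least 5 CPM in 2 samples, 238 (and 3 lower) with DESeq2, 1 with limma-voom, 3 with legacy dispersions and 4 without rRNA genes. It ran from 0 (without BPTMC replicate 3) to 43 (without BPTMC replicate 1) when single libraries were left out. Fits with a lone DMSO library take its variability from the BPTMC libraries.

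lipl-1, lipl-2, lipl-3, lipl-5 and lipl-7 stayed positive in every alternative in which they could be tested. The log2 fold change of atgl-1 turned to 0.05 with total-count scaling, 0.12 with at least 5 CPM, 0.58 without DMSO replicate 2, 0.39 without BPTMC replicate 1 and 0.03 without BPTMC replicate 2. hosl-1 turned to 0.28 without DMSO replicate 2 and 0.05 without BPTMC replicate 3. lipl-4 turned to -1.02 with limma-voom, -0.25 with the replicate block and -0.42 without BPTMC replicate 1. With single libraries left out, atgl-1 ran from -0.44 to 0.58, hosl-1 from -0.49 to 0.28 and lipl-4 from -0.42 to 0.84. The cause was not tested. RLE scaling moved the median of all genes to -0.14. lipl-3, lipl-4 and lipl-7 could not be tested with at least 5 CPM. Depth limits lipl-4, lipl-6 and lipl-8, with at most 26 reads in any library.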
